A study of Mus musculus with 8 samples.

Results

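Replication timing of 7 signalling genes of mouse chromosome 4 was examined in embryonic stem cells: the Wnt pathway genes Wnt4, Ror1 and Dvl1, the bone morphogenetic protein (BMP) family ligand genes Bmp8a, Bmp8b and Gdf6, and the transforming growth factor beta (TGF-beta) receptor gene Tgfbr1. They were taken by name as developmental signalling genes of this chromosome, and all 7 were among its 1301 measured protein-coding genes. In Repli-seq, DNA made during a BrdU pulse is pulled down and sequenced from cells sorted into an early and a late fraction of S phase. The control was the JM8N4 line of mouse embryonic stem cells, and the other group carried a Klf4 enhancer deletion. The labels used here name no further allele, agent or clone for either group, and without expression data the cell type could not be checked against its markers. The nearest member to the Klf4 gene itself (chr4:55527137-55532475) is Tgfbr1, 8.11 Mb away, and the farthest is Dvl1, 100.3 Mb away. The 8 libraries gave 4 profiles, 2 per genotype, each from 1 early and 1 late library. They are called control 1 and 2 and deletion 1 and 2 after the numbers of the deposited columns. Whether profiles of a genotype came from separate cultures is not stated, so p-values measure only the spread between these profiles, which may be technical.

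Wnt ligands bind frizzled receptors and coreceptors such as ROR1, and dishevelled proteins such as DVL1 carry the signal inwards, to beta-catenin or to the cytoskeleton. Ligands of the BMP and TGF-beta families bind pairs of type I and type II receptor kinases, which phosphorylate SMAD transcription factors. In mouse embryonic stem cells BMP signals help to hold the undifferentiated state through Id genes, while Wnt and activin-type signals take part in self-renewal and in the onset of germ layer formation. Early replication generally goes with gene-dense, transcriptionally active chromatin, and late replication with gene-poor chromatin.

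A gene's value is the mean timing score of the 5 kb bins that overlap it. The score sets early against late S-phase signal and has no unit. The labels do not state its direction; higher was read as earlier, the usual convention for such profiles. The deposited table holds no read counts, so the depth behind each score is unknown. A gene is called early where its score lay above 0 and late where it lay below 0. Among all 1301 genes, 79.7% were early in every profile, 16.6% were late in every profile and 3.69% were mixed. Genes early in every profile had a median of 18 other protein-coding genes within 500 kb, against 8 for genes late in every profile. Over all bins the median was -0.79 for control 1, -0.37 for control 2, -0.73 for deletion 1 and -0.21 for deletion 2, so profiles numbered 2 lay higher in both genotypes.

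The 7 genes fell into 2 well separated classes. Bmp8b, Wnt4, Bmp8a and Dvl1 were early in every profile, with values from 2.57 to 3.82. Gdf6, Ror1 and Tgfbr1 were late in every profile, with values from -1.93 to -0.56, and within a profile every early member exceeded every late one by at least 3.32. The share of late genes, 3 of 7, stands beside 16.6% of all genes, a description of a chosen set. By control mean the order was Bmp8b, Wnt4, Bmp8a, Dvl1, Gdf6, Ror1 and Tgfbr1. Neighbours within each class were not separated, since the ranges of their 4 values overlapped. Only Dvl1 and Gdf6, across the boundary of the classes, were. Within each profile the order was firmer in places: Wnt4 exceeded Bmp8a in 4 of 4 profiles, by 0.25 ± 0.11 (SD, n = 4), and Dvl1 was the lowest early member in 4 of 4.

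**Figure D1:**
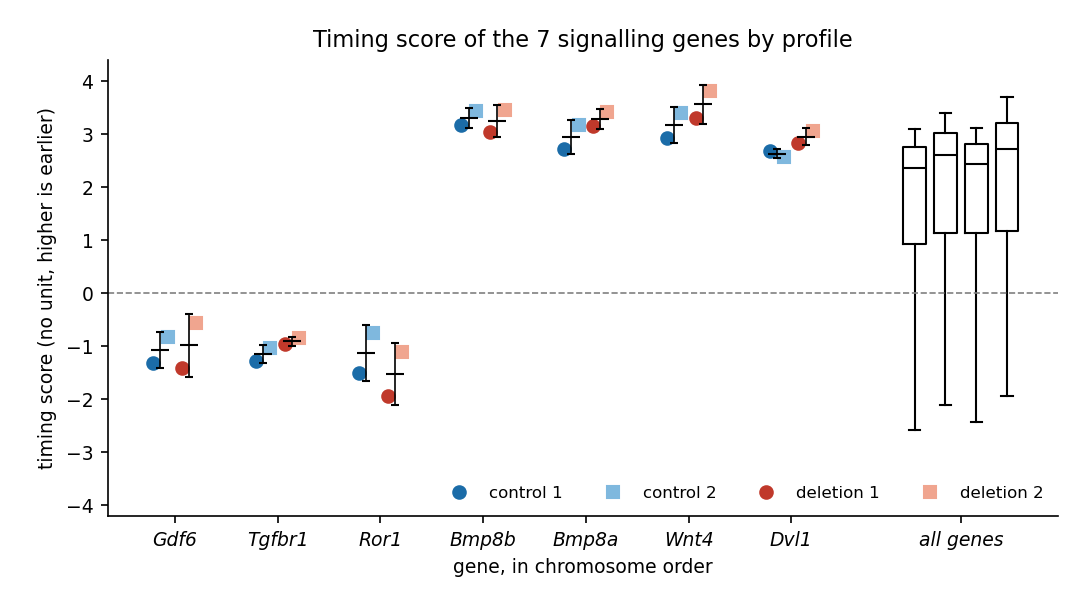
Scores (vertical axis, timing score without unit, earlier replication upwards) of the 7 genes in chromosome order, 1 point per profile, with the mean and SD of each genotype (n = 2) in black. Boxes on the right give all 1301 genes per profile as median, quartiles and 5th to 95th percentile. Gdf6, Tgfbr1 and Ror1 lie below 0 in all 4 profiles, and the other members lie above 2.5.

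The number of genes nearby differed along the same division. The early members had 15 to 43 other protein-coding genes within 500 kb of their middle, against 2 for Gdf6, 4 for Ror1 and 6 for Tgfbr1. Length did not follow it: the early members were 11.9 to 30.6 kb long, Gdf6 18.0 kb, Tgfbr1 61.7 kb and Ror1 349 kb, beside a median of 18.9 kb for all genes. An unbroken run of bins of one sign in the mean of the 4 profiles is called a domain here. The chromosome held 39 early domains, with a median length of 965 kb, and 39 late ones, with a median of 1130 kb. The distances of the members to the nearest edge of their domain ranged from 25.8 kb for Ror1 to 5220.5 kb for Wnt4.

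Promoters were compared as a feature that the choice of genes did not use. RefSeq promoter entries (GRCm38.p6, the mm10 build) matched 6 of the 7 members, all except Gdf6. The dinucleotide CG, which reads the same on both strands, was counted in the 250 bases before the first listed start of each gene. It occurred at least once in 96.2% of 1067 promoters of measured genes on the chromosome. Promoters of genes early in every profile had a median of 13 (886 promoters), against 2 (145 promoters) for genes late in every profile. Wnt4 had 44, and 99.1% of the 1067 had fewer. Dvl1 had 26, Bmp8b 17 and Bmp8a 12. Among the late members Ror1 had 8, above 72.4% of late promoters. Tgfbr1 had 29, above 94.5% of late promoters and above the upper quartile of early ones, 20. A second listed start of Tgfbr1, inside the gene, had 3. The promoters shown are those of the CG-richest early member and of both late members with an entry, 5′ to 3′ on the plus strand with each CG in capitals. They lie at chr4:137277385-137277634 (Wnt4), chr4:47352972-47353221 (Tgfbr1) and chr4:100095541-100095790 (Ror1).
Wnt4: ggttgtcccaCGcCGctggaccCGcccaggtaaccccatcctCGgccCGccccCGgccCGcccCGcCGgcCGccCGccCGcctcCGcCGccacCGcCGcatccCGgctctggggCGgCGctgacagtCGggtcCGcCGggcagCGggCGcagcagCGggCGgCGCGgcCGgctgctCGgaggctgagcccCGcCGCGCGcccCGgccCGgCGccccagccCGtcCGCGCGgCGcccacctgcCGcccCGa
Tgfbr1: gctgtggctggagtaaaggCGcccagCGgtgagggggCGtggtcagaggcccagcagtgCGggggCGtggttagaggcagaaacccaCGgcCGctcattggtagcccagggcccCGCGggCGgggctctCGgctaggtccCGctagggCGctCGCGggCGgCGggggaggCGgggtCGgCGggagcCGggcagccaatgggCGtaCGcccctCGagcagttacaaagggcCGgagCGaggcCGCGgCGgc
Ror1: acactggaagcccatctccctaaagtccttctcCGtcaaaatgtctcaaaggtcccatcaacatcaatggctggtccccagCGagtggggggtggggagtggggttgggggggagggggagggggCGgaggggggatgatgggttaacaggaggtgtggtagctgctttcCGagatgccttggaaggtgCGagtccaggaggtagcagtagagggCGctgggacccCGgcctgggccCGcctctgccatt

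**Figure D2:**
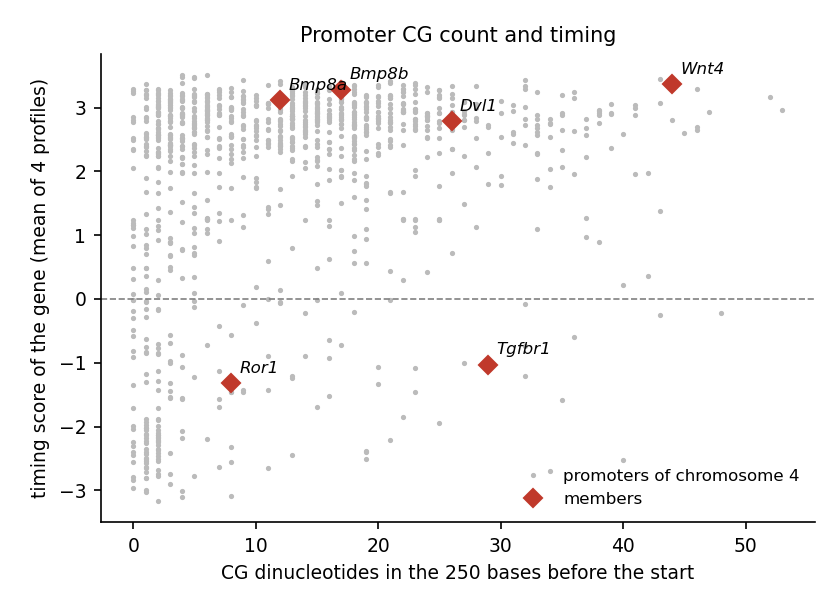
Number of CG dinucleotides in the 250 bases before the start (horizontal axis) against the mean timing score of the gene over 4 profiles (vertical axis, no unit), 1 point per gene for 1067 genes of chromosome 4, with members as red diamonds. Tgfbr1, at 29, lies among CG-rich promoters but below a score of 0, and Ror1, at 8, lies below it as well.

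Among the ligand genes, Wnt4 was the earliest by the mean of all profiles. WNT4 acts in the development of the kidney and the female reproductive tract. The gene lies on the plus strand at chr4:137277635-137299501. Its score was 2.93 in control 1, 3.41 in control 2, 3.30 in deletion 1 and 3.82 in deletion 2. Deletion 2 was the highest and control 1 the lowest value, the genotypes overlapped, and the mean lay at the 98.6th percentile of all genes. The gene lay deep inside the longest early domain of the chromosome, 10905 kb, with 5663 kb to the lower edge and 5220.5 kb to the upper. The gene was higher than a 100 kb window centred 250 kb below it in 4 of 4 profiles, by 0.94 ± 0.23 (SD, n = 4). Against the window 250 kb above it, the gene differed by -0.024 in control 1, 0.29 in control 2, 0.72 in deletion 1 and 1.19 in deletion 2, so control 1 showed no rise over that side. The highest bin within 250 kb was 12.6 to 17.6 kb before the gene start in control 2 and both deletion profiles. In control 1 it lay 267 kb above the start, at 2.99. On either side Zbtb40, which encodes a zinc finger protein, scored 2.33 in control cells, and Cdc42, which encodes a small GTPase, 2.87.

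Bmp8b and Bmp8a, 2 closely related ligand genes with roles in germ cell development, share one early domain of 4955 kb. Bmp8b, on the plus strand at chr4:123104308-123126094, scored 3.17 in control 1, 3.44 in control 2, 3.04 in deletion 1 and 3.46 in deletion 2. Deletion 1 was the lowest and deletion 2 the highest value, so the groups overlapped. Bmp8a, on the minus strand at chr4:123312645-123343252, scored 2.73 in control 1, 3.17 in control 2, 3.15 in deletion 1 and 3.41 in deletion 2. Here control 1 was the lowest, and the genotypes overlapped through control 2. The genes are 187 kb apart with 5 protein-coding genes between them, and the 4-profile mean stayed between 3.16 and 3.34 over that stretch. Bmp8b exceeded Bmp8a in 3 of 4 profiles, by 0.16 ± 0.25 (SD, n = 4), a difference smaller than its spread. Each gene contains a gene of the Oxct2 pair, which encodes a ketone body enzyme of the testis: Oxct2b lies within Bmp8b and Oxct2a within Bmp8a, and they share the bins of their host. The sources used here do not say how reads from stretches alike in both genes were placed. Trit1, for a tRNA-modifying enzyme, lies 49.4 kb below Bmp8b and scored 2.58 in control cells, and Pabpc4, for a poly(A)-binding protein, lies 13.7 kb below Bmp8a and scored 3.09. Bmp8b lies 404 kb from the lower edge of the domain and Bmp8a 613 kb. Below that edge the 4-profile mean was late.

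**Figure D3:**
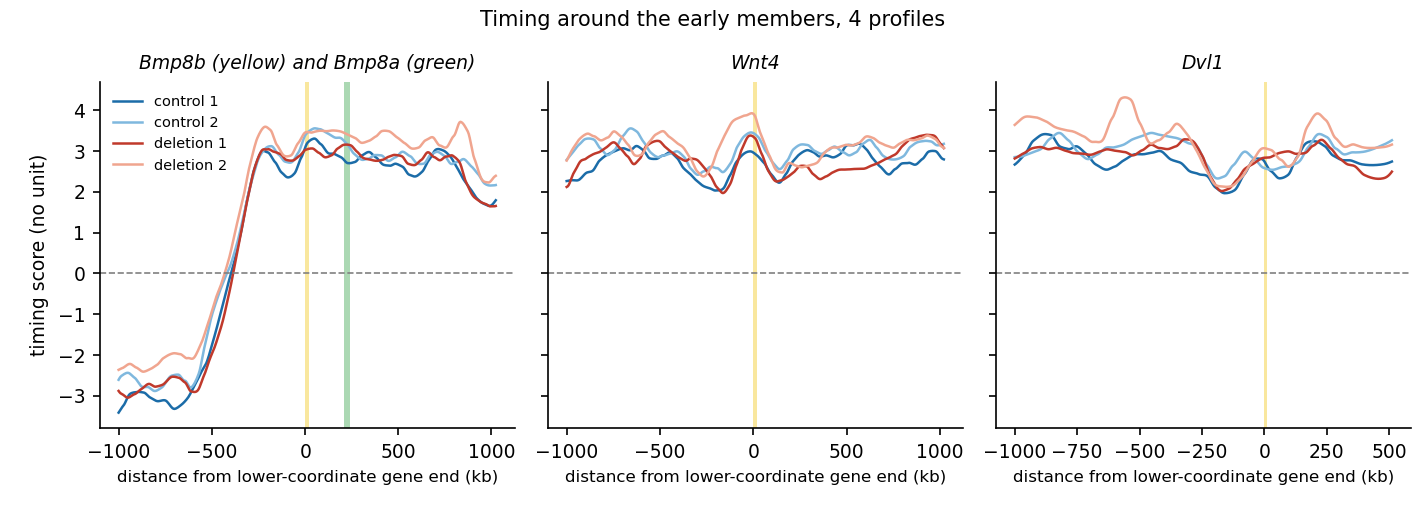
Timing score (vertical axis, no unit) of the 4 profiles against distance in kb from the lower-coordinate end of Bmp8b, Wnt4 and Dvl1 (yellow bands; Bmp8a in green), with the dashed line at 0. Bmp8b and Bmp8a lie in an early domain whose lower edge, where the 4-profile mean crosses 0, is 404 kb below Bmp8b. Wnt4 lies above the window 250 kb below it in all 4 profiles but not above the one 250 kb above it in control 1. The Dvl1 panel ends with the last measured bin.

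Gdf6 encodes a BMP family ligand of joint, skull and eye development and was the late member among the ligands. It lies at chr4:9844372-9862345. It scored -1.31 in control 1, -0.83 in control 2, -1.40 in deletion 1 and -0.56 in deletion 2. Both profiles numbered 2 were higher than both numbered 1, so the genotypes overlapped. The gene lay near the middle of a late domain of 1405 kb, 674 kb from its lower and 713 kb from its upper edge. That domain was not uniform. The highest bin within 250 kb of the gene lay 89.4 to 109 kb below its lower-coordinate end and scored -0.68, -0.46, -0.54 and 0.02 in control 1, control 2, deletion 1 and deletion 2. In deletion 2 this small rise crossed 0 and cut the domain, which left Gdf6 74.4 kb from an edge in that profile. In the other 3 profiles the nearest edge was 639 to 669 kb away. On the other side the score fell: a 100 kb window centred 250 kb above the gene was lower than Gdf6 by 1.42 ± 0.12 (SD, n = 4), in 4 of 4 profiles. The nearest genes were Asph, an aspartate beta-hydroxylase gene 175 kb below, which was late at -1.44 in control cells, and 2610301B20Rik, 1012 kb above, which was early at 2.47.

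Of the receptor genes, Tgfbr1 encodes the type I receptor kinase (ALK5) of TGF-beta. It lies on the plus strand at chr4:47353222-47414926. The gene scored -1.27 in control 1, -1.03 in control 2, -0.96 in deletion 1 and -0.85 in deletion 2. Both deletion values lay above both control values, but the nearest of them, -0.96 and -1.03, were closer than the SD within either genotype. The spread was the smallest of the late members, with an SD of 0.17 in control and 0.080 in deletion cells. Tgfbr1 lay in a late domain of 1195 kb, 458 kb from the lower and 675 kb from the upper edge, and all 13 of its bins were late. The lower edge was nearly the same in the 4 profiles, at 453 to 468 kb. Scores rose along the gene, from -1.17 ± 0.13 in its first bin to -0.91 ± 0.21 in its last (SD, n = 4), towards a local high 71.8 to 117 kb above the start. That high remained below 0 in every profile. The gene exceeded the 100 kb window centred 250 kb below it by 0.10, 0.13, 0.40 and 0.44 in control 1, control 2, deletion 1 and deletion 2. It exceeded the one 250 kb above it by 1.09 ± 0.24 (SD, n = 4). Its neighbours replicated late too. Col15a1, a collagen gene 40.1 kb below, scored -1.46 in control cells, and Alg2, a glycosylation enzyme gene 54.9 kb above, scored -0.97.

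Ror1 encodes a receptor tyrosine kinase-like protein that binds Wnt ligands. It lies on the plus strand at chr4:100095791-100444806 and spans 70 bins. Averaged over the gene the score was -1.50 in control 1, -0.75 in control 2, -1.93 in deletion 1 and -1.11 in deletion 2. Values in profiles numbered 1 were again the lower ones, and the genotypes overlapped. Its start lay at the flank of an early region. A 100 kb window centred 250 kb below the gene scored 2.11 ± 0.34, the first bin -0.23 ± 0.34 and the gene -1.32 ± 0.51 (SD, n = 4). The first bin was at 0.19 in control 2 and below 0 in the other 3 profiles. From there scores fell along the gene to a trough 209 to 254 kb from its start, with lowest bins of -2.02 and -1.23 in the controls and -2.76 and -1.66 in the deletion profiles, and rose again to -1.07 ± 0.39 in the last bin (SD, n = 4). In 5 equal stretches of 14 bins from start to end, the control means were -0.44, -0.92, -1.44, -1.58 and -1.24. The deletion means were -0.69, -1.46, -2.00, -2.03 and -1.40. The late domain around it was 625 kb long with the gene 25.8 kb from the lower and 250.2 kb from the upper edge. Its extent differed between profiles. The upper edge lay 515 kb away in control 1, 200 kb in control 2 and 240 kb in both deletion profiles. Pgm1, a glucose metabolism gene 108 kb below, was early at 1.33 in control cells, and Ube2u, a ubiquitin-conjugating enzyme gene 34.1 kb above, was late at -0.49.

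**Figure D4:**
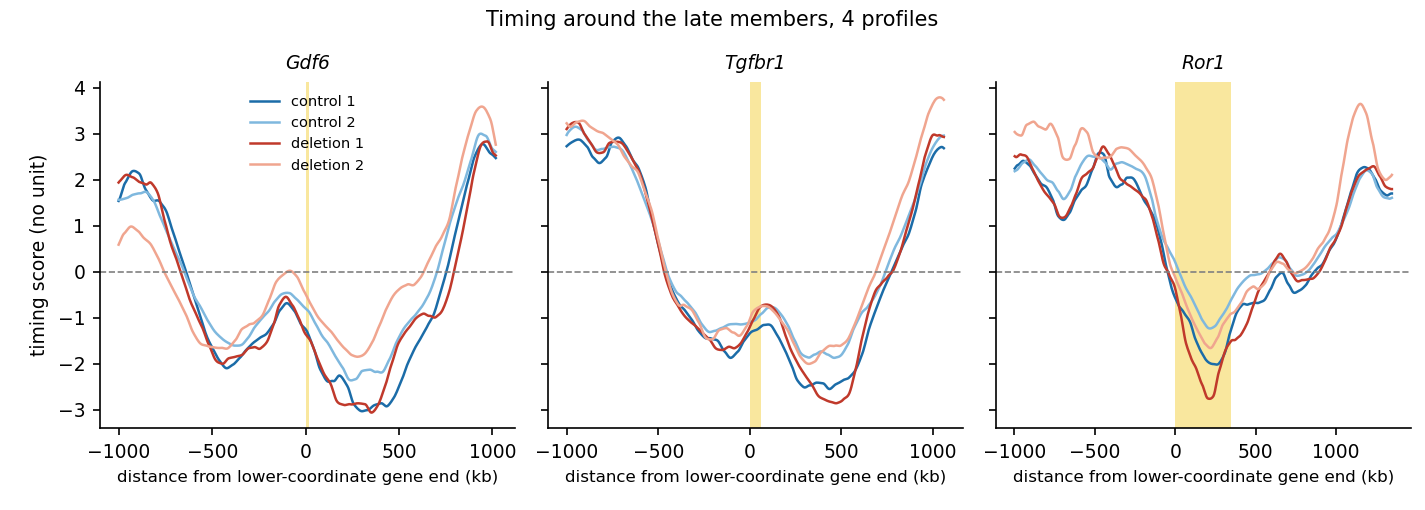
Timing score (vertical axis, no unit) of the 4 profiles against distance in kb from the lower-coordinate end of Gdf6, Tgfbr1 and Ror1 (yellow bands), with the dashed line at 0. Gdf6 lies on the upper side of a small rise inside a late domain, Tgfbr1 on the lower side of another, and Ror1 holds the trough of its domain, at -2.76 in deletion 1 and -1.23 in control 2.

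Dvl1 encodes a cytoplasmic transducer of Wnt signals. It lies on the plus strand at chr4:155847402-155859303 in the gene-dense distal end of the chromosome, with 43 other genes within 500 kb. Scores were 2.69 for control 1, 2.57 for control 2, 2.84 for deletion 1 and 3.06 for deletion 2. Both deletion values lay above both control values. Its mean of 2.79 lay at the 62.9th percentile, so it was early without standing among the earliest. The domain of 2585 kb runs to the last measured bin, 501 kb above the gene, and its lower edge lay 2072 kb away. The gene was lower than a 100 kb window centred 250 kb above it in 4 of 4 profiles, with a difference of -0.43 ± 0.19 (SD, n = 4). The flanking Mxra8, an adhesion protein gene, and Tas1r3, a taste receptor gene which overlaps the end of Dvl1, scored 2.70 and 2.58 in control cells. In deletion cells they scored 2.95 and 2.94. For both of these genes, as for Dvl1, both deletion values lay above both control values.

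Over 1 Mb away from each member, the gene with the most similar values, by the root mean square difference over the 4 profiles, was Tmem59 for Wnt4 (0.062), Man1c1 for Bmp8b (0.062) and Smap2 for Bmp8a (0.072). It was Srarp for Dvl1 (0.087), Cyp4a30b for Gdf6 (0.089), Pgap4 for Tgfbr1 (0.071) and Spaca1 for Ror1 (0.095). Patterns like those of early members were common. Within a root mean square difference of 0.25, again over 1 Mb away, there were 181 genes for Bmp8a, 139 for Dvl1, 119 for Bmp8b and 81 for Wnt4. There were 13 each for Gdf6 and Tgfbr1 and 4 for Ror1. These counts are not scaled for the number of genes in each class, 1037 early and 216 late in every profile.

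The comparison of genotypes asked whether these genes replicated at another time in the cells with the Klf4 enhancer deletion. No member passed the test: 0 of 7 rose and 0 fell by limma with Benjamini-Hochberg adjustment over all 1301 genes, where 0% of genes were called. None of the 7 had an unadjusted p under 0.05, against 17 of all genes. Means of Wnt4 were 3.17 ± 0.34 for control and 3.56 ± 0.37 for deletion profiles, with a difference of 0.39 (SE 0.35). Those of Ror1 were -1.12 ± 0.53 and -1.52 ± 0.58 (SD, n = 2 each), with a difference of -0.39 (SE 0.37). Differences were 0.33 for Bmp8a, 0.32 for Dvl1, 0.25 for Tgfbr1, 0.092 for Gdf6 and -0.056 for Bmp8b. The adjusted p was 0.999 for every member (limma), and SEs and p-values rest on a spread moderated over all genes. In the exact two-sided permutation test over the 4 profiles, p was 0.333 for Dvl1 and Tgfbr1, the smallest that 2 against 2 can give, and 0.667 or 1 for the others. Lack of a call does not show that timing was the same.

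The difference of all genes had a median of 0.14, and member values are therefore also given relative to it. Relative to that shift, Ror1 was at -0.53, the 1.84th percentile of all genes. Wnt4 was at 0.26, Bmp8a at 0.20, Dvl1 at 0.18, Tgfbr1 at 0.11, Gdf6 at -0.045 and Bmp8b at -0.19. After median centring or quantile normalization the Ror1 difference was -0.50 or -0.49 and that of Wnt4 0.28 or 0.22, so their directions were the same on each scale. The Gdf6 difference was -0.018 after median centring. Both deletion profiles lay above both controls for 2 members, Dvl1 and Tgfbr1, where 15.1% of all genes did so, and below them for 0, where 6.53% did. The other 5 overlapped. The sign of the difference itself, not taken relative to all genes, also depended on single profiles for 3 members. Ror1 was at 0.019 without deletion 1 and at -0.81 without deletion 2. Bmp8b was at 0.15 without deletion 1 and 0.076 without control 2, and Gdf6 at -0.15 without control 1 and -0.33 without deletion 2. The median of all genes moved in the same fits. It was 0.32 without deletion 1, 0.28 without control 2, -0.023 without control 1 and -0.065 without deletion 2. Ror1 and Bmp8b lay below that median in each of these fits, while Gdf6 lay on either side of it.

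The difference of Ror1 was also followed along the gene. From start to end, the 5 stretches differed by -0.25, -0.54, -0.56, -0.45 and -0.16. It was negative in all 5 both between the profiles numbered 1, from -0.71 to -0.080, and between those numbered 2, from -0.42 to -0.24. In each stretch the genotypes overlapped, with deletion 2 above control 1, and the labels do not say that numbers are pairs. The stretches adjoin in a single gene, so they are not separate measurements. A lower mean in deletion profiles was not limited to Ror1. Ube2u, 34.1 kb above it, had means of -0.49 in control and -0.94 in deletion profiles. It scored -0.75 in control 1, -0.23 in control 2, -1.28 in deletion 1 and -0.60 in deletion 2, so its genotypes overlapped too. For Pgm1, on the lower side, the deletion mean was the higher one. In the 1 Mb on either side of Ror1 the lowest bin difference, -0.60, lay inside that gene, at position 100295000. The highest, 0.82, lay above Ror1, at 101195000. Single bins were not tested.

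**Figure D5:**
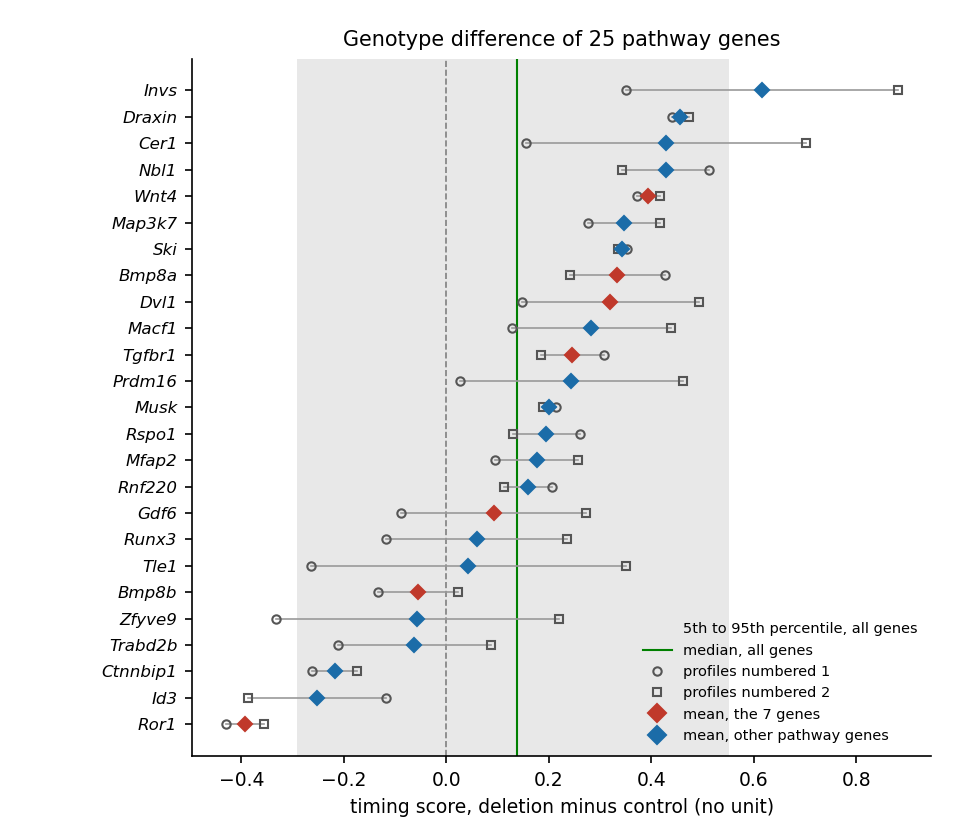
Timing score in deletion minus control profiles (horizontal axis, no unit) of the 25 genes of the pathway list, with the mean as a diamond (members in red) and the differences between profiles numbered 1 and 2 as open symbols. The green line is the median of all 1301 genes, 0.14, and the grey band their 5th to 95th percentile. Ror1, at -0.39, is the listed gene below that band, and Invs, at 0.62, the one above it.

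A list of 25 genes of these pathways on the chromosome, the 7 members included, set them in context. Of the 25, 18 were early in every profile, 6 late and 1 mixed, which is 72%, 24% and 4%. Of the 18 that were not members, 14 were early, 3 late and 1 mixed. These shares, 77.8%, 16.7% and 5.56%, lay near the 79.7%, 16.6% and 3.69% of all genes. The 3 late genes that were not members belonged to the Wnt group, which held 4 late genes among 12. Trabd2b, for a membrane protease that cleaves Wnt ligands, was the latest at -3.00 ± 0.56 in control cells. Musk, a receptor kinase gene of the neuromuscular junction with a frizzled-like domain, scored -1.79 ± 0.53, and Tle1, for a Groucho-type corepressor, -1.60 ± 0.025 (SD, n = 2 each). The mixed gene was Cer1, for the secreted BMP and Nodal antagonist Cerberus. Its score was -0.41 in control 1, 0.17 in control 2, -0.25 in deletion 1 and 0.88 in deletion 2, so its state followed the replicate number. Among the 7 genes of the TGF-beta group, Tgfbr1 was the late one and the 6 others were early.

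No gene of this list passed the test either. By limma 0 of 25 rose and 0 fell over all genes tested, with 0 at an unadjusted p under 0.05. That last count is not given for fits with 1 profile left out, since each leaves only 1 profile in a genotype. The median difference of the list was 0.20, against 0.14 over all genes. It was 0.091 after median centring and 0.046 after quantile normalization, against 0.027 and -0.027 over all genes. With 1 profile left out it was -0.0023 without deletion 2, 0.026 without control 1, 0.35 without control 2 and 0.46 without deletion 1. In the same order the median over all genes was -0.065, -0.023, 0.28 and 0.32. Invs, for the ciliary protein inversin, and Draxin, for a secreted Wnt antagonist, had the highest differences. For Invs control 1 was at 2.39, control 2 at 2.60, deletion 1 at 2.75 and deletion 2 at 3.48, with a difference of 0.62. For Draxin the values in the same order were 2.26, 2.56, 2.70 and 3.03, with a difference of 0.46. Id3, a BMP target that encodes a dominant-negative helix-loop-helix protein, had the lowest difference after Ror1, -0.25, from 2.63 and 2.68 in the controls and 2.51 and 2.30 in the deletion profiles. For these 3 genes the groups did not overlap. In the whole list both deletion profiles lay above both controls for 6 of 25 genes, beside 15.1% of all genes, and below them for 2, beside 6.53%. The adjusted p was 0.999 for each of the 3 named (limma).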

How the data were processed

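The 8 libraries, from cells given BrdU for 2 h and 40000 sorted cells per the labels, were grouped by genotype from the labels. Columns were matched to a genotype and number by name. The deposited values are timing scores on 5 kb bins of chromosome 4, 1 column per profile, scaled by the authors to a common interquartile range per the file's name. Bowtie2, SAMtools, bedtools and mm10 are named in the submitters' processing notes, without versions. The log base and smoothing are not given in the sources used here. Positions were taken as bin starts, and 30659 of 31301 had a value in all profiles. Genes in the same bin share its score.

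Genes came from RefSeq (GRCm38.p6). Deletion was compared with control over 1301 genes with limma 3.58.1 (lmFit, eBayes) in R 4.3.3, two-sided, with a Benjamini-Hochberg threshold of 0.05, and with exact permutation of single values. The code was tested on simulated data. All 7 members, their neighbours, the most similar genes and, of the pathway list, genes not early in every profile and the 2 highest and 2 lowest differences were named. Members and lists were chosen with earlier results of these data known, and the local rises and troughs and the stretches of Ror1 were described after their values were seen. Alternatives were median centring, quantile normalization, bin ends, trend and robust options, 50 kb flanks, 500 kb windows, a replicate block, other domain settings and leaving out each profile.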

Additional observations from a re-analysis of the deposited data

How the results depend on the processing

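Of the 7 members, 4 were early and 3 late in every profile also with thresholds at profile medians, 50 kb flanks or bin ends. No member was called under any alternative run, and no listed pathway gene under those counted for the list. These left out 50 kb flanks, 500 kb windows and the trend and robust options. The count of called genes among 1301 was 0 in each fit where it was taken, except without deletion replicate 1. That fit leaves 1 deletion profile. The count was not taken for 50 kb flanks or 500 kb windows. With the replicate block 0 genes were called, 165 had an unadjusted p under 0.05, 3 of them on the pathway list, and the member differences were the same, such as 0.39 for Wnt4, with adjusted p from 0.397 to 0.925 (limma). The labels do not say that numbers are pairs, and deviations of same-numbered profiles from their genotype means correlated at 0.33 over genes. The range with 1 profile left out was 0.13 to 0.66 for Wnt4, -0.81 to 0.019 for Ror1, 0.21 to 0.43 for Dvl1, 0.11 to 0.56 for Bmp8a, -0.27 to 0.15 for Bmp8b, -0.33 to 0.52 for Gdf6 and 0.13 to 0.36 for Tgfbr1. The sign turned for Bmp8b over 500 kb windows, at 0.15, and for Gdf6 after median centring, at -0.018. The cause was not tested. With the chromosome median subtracted, the nearest domain edge in kb was 5260.5 for Wnt4, -34.2 for Ror1 (inside the gene), 648 for Bmp8a, 439 for Bmp8b, 64.4 for Gdf6 and 408 for Tgfbr1. In single profiles it was 5185.5 for Wnt4 in deletion 1, -24.2 for Ror1 in control 2, 643 for Bmp8a, 434 for Bmp8b and 74.4 for Gdf6 in deletion 2, and 468 for Tgfbr1 in deletion 1. With 2 profiles per genotype and no read counts, small differences are not detectable here. Larger ones were not called either. Over all 1301 genes the difference in the main fit ranged from -0.77 to 1.04, with 0 genes called.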
